A study of Mus musculus with 14 samples.

Results

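The 35 genes described here are immediate early and dissociation stress genes, which cells switch on within minutes of a stimulus, including the enzymatic and mechanical release of cells from tissue. They were taken from a written list of symbols, and all 35 were found in both deposited tables, among 56953 genes listed after BaCl2 and 14330 after glycerol. They fall into 9 AP-1 genes, 3 EGR genes, 9 other immediate early transcription factors, 10 early feedback genes and 4 heat shock genes. Fibro-adipogenic progenitors (FAPs), the mesenchymal stromal cells of skeletal muscle, were sequenced from TA muscle, read here as the tibialis anterior. The mice were labelled SMA, taken here to mean spinal muscular atrophy, or WT, wild type. All muscles had been injured 3 days earlier, either with glycerol, an injury followed by fat deposition (4 SMA and 4 WT libraries), or with BaCl2, a salt toxic to muscle fibres (3 SMA and 3 WT libraries). The cells were isolated by MACS, a magnetic sort with antibodies that are not named, and RNA was taken from fresh cells. The labels name neither the SMA allele nor the age of the mice, uninjured muscle was not analysed here, and the label for batch is the injury itself, so the effects of the 2 cannot be told apart. Whether the libraries came from separate animals is not stated, so p-values measure the spread between these libraries, which may be technical.

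Immediate early genes are transcribed from factors that are already in the cell, such as serum response factor at CArG boxes and CREB at cyclic AMP response elements, when ERK, p38 and JNK kinases are activated. Their first products are transcription factors of the AP-1, EGR, NR4A and KLF families. Others of their products end the response, the DUSP phosphatases by removing phosphate from the kinases and the ZFP36 proteins by starting the decay of messages with AU-rich ends. Heat shock genes are driven by another factor, HSF1, at heat shock elements, and encode chaperones for misfolded protein. In cells of muscle both groups are known to be induced while tissue is digested and sorted, so their level in a sorted sample holds what the cells did in the animal and what they did on the bench.

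Totals after BaCl2 ran from 97.7 M to 136 M counts per library (M, mega), and the lowest count of any of the 35 genes in any library was 415. The glycerol table holds the authors' normalized counts, which summed to 71.4 M to 76.6 M per library with an unknown depth behind them, and its lowest value for any of the 35 genes was 432. Smn1, the gene that is deficient in spinal muscular atrophy, stood at 640 to 806 normalized counts in SMA and 935 to 1209 normalized counts in WT libraries after glycerol, and at 9.995 to 11.96 CPM in SMA and 15.3 to 17.2 CPM in WT libraries after BaCl2 (CPM, counts per M of the library after TMM scaling). The FAP marker Pdgfra was present in every library, at 59457 to 77327 normalized counts in SMA and 64098 to 77915 in WT libraries after glycerol, and at 714 to 1015 CPM in SMA and 822 to 940.2 CPM in WT libraries after BaCl2. Of 12 macrophage markers, 5 rose after glycerol and 11 rose after BaCl2 in SMA libraries, and none was at 0 in any library. In samples of many cells, fewer cells of a type and less RNA per cell cannot be told apart.

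After glycerol, 4 of the 35 genes passed the test between SMA and WT libraries, and all 4 were higher in SMA. They were Egr1, a zinc finger transcription factor, Dusp1 and Dusp5, phosphatases that switch off MAP kinases, and Gadd45b, a stress protein that acts on the p38 and JNK kinases. Among all 14330 genes 2.87% passed in either direction, 1.7% being higher and 1.17% lower (limma on log2 of the value plus 1, Benjamini-Hochberg adjusted p under 0.05). The log2 fold change was above 0 for 25 of the 35 genes, with a median of 0.15, beside 50% of all genes and a median near 0. At an unadjusted p under 0.05 there were 17 of the 35 genes, beside 23.3% of all genes. Every SMA library lay above every WT library for 10 of the 35 genes and below for 2, beside 6.59% and 7.54% of all genes (14.1% in either direction). The 10 were 4 AP-1 and EGR genes (Fos, Atf3, Egr1 and Egr2), 5 early feedback genes (Dusp1, Dusp2, Dusp5, Zfp36 and Gadd45b) and Csrnp1, and the 2 were Nr4a2 and Nr4a3.

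After BaCl2, 1 of the 35 genes passed, Dusp2, another MAP kinase phosphatase, which was higher in SMA. Of all 20119 genes tested 4.29% passed in either direction, 2.73% being higher and 1.56% lower (edgeR quasi-likelihood test, adjusted p under 0.05). Here the log2 fold change was above 0 for 12 of the 35 genes and below 0 for 23, with a median of -0.053, beside 49.4% of all genes above 0 and a median of -0.0028. At an unadjusted p under 0.05 there were 10 of the 35 genes, beside 19.3% of all genes. All SMA libraries lay above all WT libraries for 1 gene and below them for 6, beside 12.2% and 13.1% of all genes (25.3% in either direction). The 6 below were Fosl2, Myc, Ier5, Zfp36, Zfp36l1 and Dnajb1, and none of them passed in edgeR, while DESeq2 called Fosl2, Zfp36 and Dnajb1. DESeq2 also called more of all genes than edgeR did, with the numbers given in the closing section.

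The calls changed when single libraries were left out, after both injuries. After glycerol, none of the 35 genes passed when any one of SMA libraries 1, 2 and 4 or WT libraries 1, 2 and 3 was left out, and 0 to 3 of all genes passed then. Without WT library 4 only Egr1 passed of the 35 genes, and without SMA library 3 there were 9, with Atf3, Egr2, Klf6, Dusp1, Dusp2, Dusp5, Gadd45b and Egr1 higher and Nr4a2 lower. Without SMA library 3 the calls rose among all genes too, to 1645, against 411 with every library. The log2 fold changes themselves moved less, between 0.51 and 0.66 for Egr1 and between 0.30 and 0.38 for Dusp1. After BaCl2 none of the 35 genes passed when SMA library 2 or one of WT libraries 2 and 3 was left out, and 3 passed without SMA library 3, with Atf3 and Dusp2 higher and Egr3 lower. In that last fit 1577 of all genes passed, against 863 with every library.

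**Figure D1:**
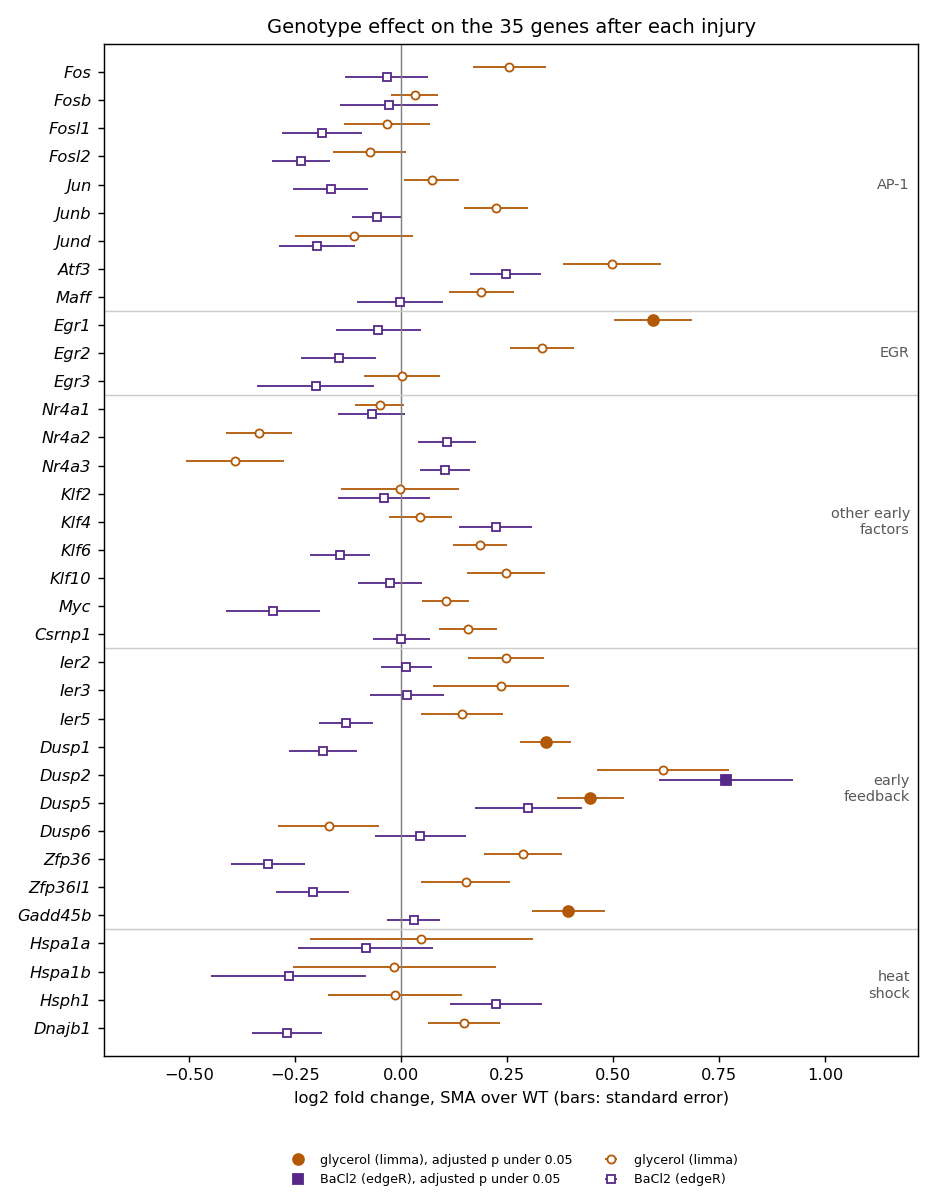
Log2 fold change of SMA over WT for the 35 genes (rows, grouped by role) after glycerol (circles, limma) and after BaCl2 (squares, edgeR), with bars for the standard error and filled symbols where the adjusted p was under 0.05. Most circles of the AP-1, EGR and early feedback genes lie to the right of the squares, while Nr4a2 and Nr4a3 lie to the left, and 4 circles (Egr1, Dusp1, Dusp5 and Gadd45b) and 1 square (Dusp2) are filled.

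The EGR factors are early responders to ERK signalling and bind GC-rich sites in promoters. Egr1 rose after glycerol, at 34127, 35905, 35996 and 39961 normalized counts in the SMA libraries, against 24461, 27543, 24913 and 20202 normalized counts in the WT libraries (libraries 1 to 4 in order, here and below). The lowest SMA library was well above the highest WT library, and WT library 4 was lowest of all. Egr1 averaged 36497 ± 2464 normalized counts in SMA and 24279.8 ± 3039 normalized counts in WT libraries (SD, n = 4 each). The test gave a log2 fold change of 0.59 (SE 0.09, limma adjusted p = 0.0299). Egr2 had 23042, 24585, 22556 and 20996 normalized counts in the SMA libraries, against 19588, 19327, 17654 and 15923 normalized counts in the WT libraries (log2 fold change 0.33, SE 0.08, limma adjusted p = 0.052). Its groups did not overlap either, but it did not pass. Egr3 had 15942, 15591, 18017 and 13067 normalized counts in the SMA libraries, against 14670.3, 15352, 15514 and 16624 normalized counts in the WT libraries, with a log2 fold change of 0.0026 and an adjusted p of 0.99. Its groups overlapped, SMA library 4 being lowest and SMA library 3 highest.

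No EGR gene passed after BaCl2 in edgeR, where 0 of the 3 had an unadjusted p under 0.05, or in DESeq2. Egr1 had 834, 1113 and 1064 CPM in the SMA libraries, against 989.8, 1052 and 1082 CPM in the WT libraries (libraries 1 to 3 in order, here and below). Egr2 had 153, 189 and 189.8 CPM in the SMA libraries, against 183, 206 and 200.5 CPM in the WT libraries. Egr3 had 171, 179.5 and 258 CPM in the SMA libraries, against 210.4, 244 and 246 CPM in the WT libraries. For all 3 genes SMA library 1 was the lowest of the 6 libraries and the groups overlapped. The log2 fold changes were -0.053 for Egr1, -0.15 for Egr2 and -0.20 for Egr3, with edgeR adjusted p of 0.837, 0.409 and 0.482. Without SMA library 1 the value of Egr1 was 0.068. Egr3 passed in edgeR when SMA library 3 was left out (-0.40, adjusted p = 0.0122), a fit in which 1577 of all genes passed.

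**Figure D2:**
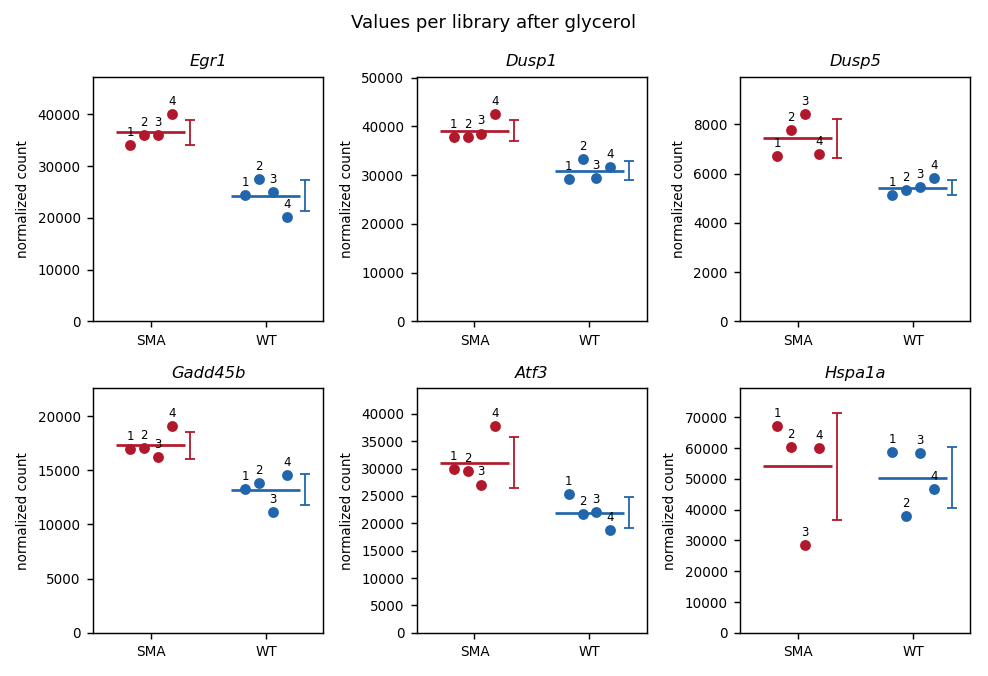
Normalized counts of 6 genes per library after glycerol (SMA left, WT right; points numbered by library, horizontal line the mean, bar the SD, n = 4 each). For Egr1, Dusp1, Dusp5, Gadd45b and Atf3 every SMA point lies above every WT point, while the points of Hspa1a overlap, with SMA library 3 lowest.

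The AP-1 genes encode the Fos and Jun proteins, which pair to bind DNA, together with the stress-induced Atf3 and the small Maf protein Maff. After glycerol 0 of the 9 passed in limma, where 4 had an unadjusted p under 0.05, beside 23.3% of all genes. The log2 fold change was above 0 for 6 of the 9, with a median of 0.072. Atf3, a repressor and activator of the ATF family that many stresses induce, had 29849, 29531, 27082 and 37816 normalized counts in the SMA libraries, against 25433, 21768, 21978 and 18697 normalized counts in the WT libraries (log2 fold change 0.50, SE 0.12, limma adjusted p = 0.0554). Fos had 144326, 145021, 127149 and 138563 normalized counts in the SMA libraries, against 125336, 120752, 122862 and 97751 normalized counts in the WT libraries (log2 fold change 0.26, SE 0.09, limma adjusted p = 0.126). In both genes every SMA library lay above every WT library, with WT library 4 lowest. Junb, a Jun protein that can restrain c-Jun, had 92129.6, 94897, 104752 and 97379 normalized counts in the SMA libraries, against 74839, 94304, 80698 and 83941 normalized counts in the WT libraries (log2 fold change 0.22, SE 0.08, limma adjusted p = 0.122). Jun itself had 55580.2, 59281, 61662 and 67902 normalized counts in the SMA libraries, against 60727, 56256, 56836 and 58185 normalized counts in the WT libraries, with a log2 fold change of 0.072 and an adjusted p of 0.537. The groups overlapped for Junb through WT library 2 and for Jun through SMA libraries 1 and 2. The other 5 ranged from -0.11 (Jund) to 0.19 (Maff), with Fosl2 at -0.074, Fosl1 at -0.033 and Fosb at 0.032, and overlapped too.

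After BaCl2 0 of the 9 AP-1 genes passed in edgeR, where 2 had an unadjusted p under 0.05, beside 19.3% of all genes. DESeq2, which called more of all genes than edgeR, called 1 of the 9, Fosl2. Of the 9, 8 log2 fold changes were below 0, with a median of -0.056. Fosl2, which encodes the Fos-related protein Fra-2, had 684, 772 and 769 CPM in the SMA libraries, against 849.9, 845 and 925 CPM in the WT libraries (log2 fold change -0.24, SE 0.07, edgeR adjusted p = 0.0901). It was the one AP-1 gene whose groups did not overlap. Atf3 had 285, 299 and 240.2 CPM in the SMA libraries, against 231, 244 and 220.04 CPM in the WT libraries (log2 fold change 0.25, SE 0.08, edgeR adjusted p = 0.136). It was the one AP-1 gene with a value above 0, and SMA library 3 lay among the WT libraries. Jund had 108, 120.1 and 126 CPM in the SMA libraries, against 149.8, 138 and 118 CPM in the WT libraries (log2 fold change -0.20, SE 0.09, edgeR adjusted p = 0.265). Fos had 835, 1124 and 918 CPM in the SMA libraries, against 964, 954 and 1028 CPM in the WT libraries (log2 fold change -0.034, SE 0.10, edgeR adjusted p = 0.902). Jun had 746, 967 and 795 CPM in the SMA libraries, against 943, 929.8 and 941 CPM in the WT libraries (log2 fold change -0.17, SE 0.09, edgeR adjusted p = 0.35). In these 3 genes SMA library 1 was lowest, and SMA library 2 was the highest library for Fos and Jun. Junb had 1297, 1403 and 1379.8 CPM in the SMA libraries, against 1456, 1379.95 and 1405 CPM in the WT libraries, with a log2 fold change of -0.056, and the groups overlapped. The others were Fosl1 at -0.19, Fosb at -0.028 and Maff at -0.0027.

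Among the 9 other immediate early transcription factors, 3 are orphan nuclear receptors of the NR4A family. Nr4a2 had 15452, 13813, 14875 and 15092 normalized counts in the SMA libraries, against 15962, 20755, 19048 and 19242 normalized counts in the WT libraries (log2 fold change -0.34, SE 0.08, limma adjusted p = 0.0554). Nr4a3 had 16866, 17674, 19318 and 22737 normalized counts in the SMA libraries, against 23146, 22943, 23854 and 30533 normalized counts in the WT libraries (log2 fold change -0.39, SE 0.12, limma adjusted p = 0.0926). All 4 SMA libraries were below all 4 WT libraries in both genes, and neither passed. Nr4a1 had 79339, 77961, 80404 and 81457 normalized counts in the SMA libraries, against 77425, 91526, 81746 and 80313 normalized counts in the WT libraries (log2 fold change -0.050, SE 0.06, limma adjusted p = 0.643), and its groups overlapped. After BaCl2 Nr4a2 had 247, 259 and 265 CPM in the SMA libraries, against 229, 225 and 261 CPM in the WT libraries, with a log2 fold change of 0.11. Nr4a3 had 338, 352 and 321 CPM in the SMA libraries, against 309.8, 307 and 325 CPM in the WT libraries, with a log2 fold change of 0.10. Nr4a1 had 894, 1022 and 1051 CPM in the SMA libraries, against 958, 1050.4 and 1104 CPM in the WT libraries, with a log2 fold change of -0.069. All 3 overlapped, and their adjusted p were 0.444, 0.386 and 0.706.

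The Krüppel-like factors, Myc and Csrnp1 complete that group, of which 0 of 9 passed after either injury. At an unadjusted p under 0.05 there were 5 of the 9 after glycerol (limma), beside 23.3% of all genes, and 2 of the 9 after BaCl2 (edgeR), beside 19.3%, a share near that of all genes. DESeq2 called 0 of the 9 after BaCl2. Klf6, a zinc finger factor induced by tissue injury, had 131775, 121288, 108606 and 118485 normalized counts in the SMA libraries, against 110458, 102979, 105357 and 102257 normalized counts in the WT libraries after glycerol (log2 fold change 0.19, SE 0.06, limma adjusted p = 0.132). SMA library 3 lay within the WT values. After BaCl2 Klf6 had 1068, 1234 and 1091 CPM in the SMA libraries, against 1216, 1222 and 1311 CPM in the WT libraries (log2 fold change -0.14, SE 0.07, edgeR adjusted p = 0.304), and SMA library 2 lay within the WT values. Myc, a driver of growth and ribosome production, had 319, 425 and 445 CPM in the SMA libraries, against 453, 510.4 and 503 CPM in the WT libraries after BaCl2 (log2 fold change -0.30, SE 0.11, edgeR adjusted p = 0.171). Every SMA library was below every WT library. After glycerol Myc had 31736, 33572, 33184 and 30216 normalized counts in the SMA libraries, against 28581, 31138, 28331 and 31605 normalized counts in the WT libraries (log2 fold change 0.11, SE 0.06, limma adjusted p = 0.281), and the groups overlapped. Klf4 had 647, 832 and 738 CPM in the SMA libraries, against 633, 656 and 611 CPM in the WT libraries after BaCl2 (log2 fold change 0.22, SE 0.09, edgeR adjusted p = 0.191), with SMA library 1 among the WT libraries. Its log2 fold change after glycerol was 0.046. The remaining factors were Klf10 at 0.25 and -0.026, Csrnp1 at 0.16 and 0.00057 and Klf2 at -0.0025 and -0.041 on the log2 scale after glycerol and after BaCl2, each in that order.

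The early feedback genes held 4 of the 5 calls. An unadjusted p under 0.05 was found in limma for 6 of the 10 after glycerol, beside 23.3% of all genes. In edgeR it was found for 5 of the 10 after BaCl2, beside 19.3% of all genes. Dusp1, which dephosphorylates p38, JNK and ERK in the nucleus, rose after glycerol, at 37756, 37874, 38554 and 42475 normalized counts in the SMA libraries, against 29258, 33335, 29328 and 31754 normalized counts in the WT libraries (log2 fold change 0.34, SE 0.06, limma adjusted p = 0.0317). Dusp5, a nuclear phosphatase of ERK, rose too, at 6726, 7778, 8399 and 6799 normalized counts in the SMA libraries, against 5118, 5335, 5448 and 5833 normalized counts in the WT libraries (log2 fold change 0.45, SE 0.08, limma adjusted p = 0.0317). Gadd45b rose as well, at 16988, 17021, 16207 and 19112 normalized counts in the SMA libraries, against 13306, 13847, 11172 and 14568 normalized counts in the WT libraries (log2 fold change 0.39, SE 0.09, limma adjusted p = 0.0471). In all 3 genes every SMA library exceeded every WT library, SMA library 4 was highest for Dusp1 and Gadd45b, and SMA library 3 was highest for Dusp5. Dusp1 averaged 39165 ± 2235 normalized counts in SMA and 30919 ± 1985 normalized counts in WT libraries (SD, n = 4 each). Dusp5 averaged 7426 ± 807 normalized counts in SMA and 5434 ± 299 normalized counts in WT libraries (SD, n = 4 each). Gadd45b averaged 17332 ± 1245 normalized counts in SMA and 13223 ± 1462 normalized counts in WT libraries (SD, n = 4 each).

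None of these 3 passed after BaCl2. Dusp1 had 364, 434 and 384 CPM in the SMA libraries, against 413, 452 and 478 CPM in the WT libraries (log2 fold change -0.18, SE 0.08, edgeR adjusted p = 0.242). Dusp5 had 101, 109 and 149.9 CPM in the SMA libraries, against 94.5, 103 and 94.5 CPM in the WT libraries (log2 fold change 0.30, SE 0.13, edgeR adjusted p = 0.231). Gadd45b had 143, 146 and 129 CPM in the SMA libraries, against 135, 136 and 139 CPM in the WT libraries (log2 fold change 0.030, SE 0.06, edgeR adjusted p = 0.86). SMA library 1 was lowest for Dusp1, SMA library 3 stood highest for Dusp5, and all 3 genes overlapped.

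Dusp2, a phosphatase of MAP kinases in the nucleus that was first described in human T cells, had the largest log2 fold change of the 35 genes after both injuries. After BaCl2 it rose, at 7.39, 7.72 and 7.84 CPM in the SMA libraries, against 5.67, 3.59 and 4.23 CPM in the WT libraries (log2 fold change 0.77, SE 0.16, edgeR adjusted p = 0.0264), on raw counts of 755, 1049 and 1014 in SMA and 773, 415 and 561 in WT libraries. The 3 SMA values were close together and all above WT, where library 1 was highest. After glycerol Dusp2 had 715, 872, 544 and 894 normalized counts in the SMA libraries, against 432, 490.4, 530.5 and 485 normalized counts in the WT libraries (log2 fold change 0.62, SE 0.16, limma adjusted p = 0.0667). There SMA library 3 was just above the highest WT library, while SMA libraries 1, 2 and 4 were far above it. The macrophage marker sum was likewise low in SMA library 3, at 115863 normalized counts, against 206743 to 280879 in the other SMA libraries and 101911 to 131906 in the WT libraries. Lyz2 was the largest part of that sum. Taken singly, Csf1r, Adgre1, Ptprc, Fcgr1, Ccr2 and Cd14 in SMA library 3 lay above every WT library. Cd68, Lyz2, Itgam, C1qa, C1qb and Mrc1 did not. The part of macrophage RNA in Dusp2 was not tested.

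Zfp36 encodes tristetraprolin, which starts the decay of cytokine messages. After glycerol it had 101446, 108431, 129930 and 106235 normalized counts in the SMA libraries, against 88897, 94294, 81061 and 100553 normalized counts in the WT libraries (log2 fold change 0.29, SE 0.09, limma adjusted p = 0.109). After BaCl2 it had 1267, 1583 and 1343 CPM in the SMA libraries, against 1786, 1800.2 and 1625 CPM in the WT libraries (log2 fold change -0.31, SE 0.09, edgeR adjusted p = 0.0747). Every SMA library was above every WT library after glycerol and below every WT library after BaCl2. Neither comparison passed in limma or edgeR, while DESeq2 called Zfp36 as lower after BaCl2. Its relative Zfp36l1 had 723, 893 and 920.1 CPM in the SMA libraries, against 985, 967 and 978 CPM in the WT libraries after BaCl2 (log2 fold change -0.21, SE 0.09, edgeR adjusted p = 0.223), with the groups apart, and a log2 fold change of 0.15 after glycerol, where they overlapped. The log2 fold changes of Ier2, Ier3 and Ier5, early response genes of mixed function, were 0.25, 0.24 and 0.14 after glycerol and 0.013, 0.014 and -0.13 after BaCl2. Dusp6, a cytoplasmic phosphatase of ERK, had a log2 fold change of -0.17 after glycerol and 0.046 after BaCl2.

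**Figure D3:**
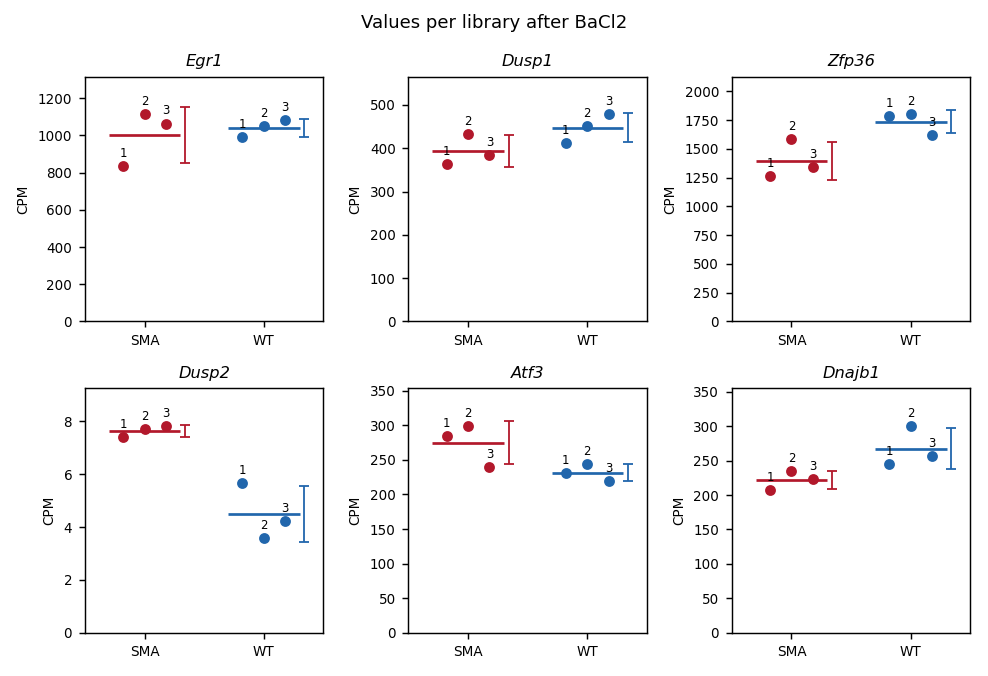
CPM of 6 genes per library after BaCl2 (SMA left, WT right; points numbered by library, horizontal line the mean, bar the SD, n = 3 each). Dusp2 has every SMA point above the WT points, Zfp36 and Dnajb1 have every SMA point below them, and SMA library 1 is the lowest point for Egr1, Dusp1, Zfp36 and Dnajb1.

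The promoters of 4 of these genes are shown because the genotype effect on each differed between the injuries (Egr2, Dusp1 and Zfp36) or passed after glycerol (Dusp1 and Dusp5), and because each holds a motif of the serum response or cyclic AMP pathway. Windows of 250 bases before to 50 bases after the gene start were taken from RefSeq on GRCm38.p6, and 29 of the 35 genes had one. Fosl1, Egr1, Egr3, Klf10, Myc and Ier2 were not in that table. Both strands were searched for the CArG box, for the cyclic AMP response element TGACGTCA, for the AP-1 site TGACTCA and for paired heat shock units, GAANNTTC or TTCNNGAA. The CArG box occurred in Egr2, Dusp5 and Zfp36 and in 1.81% of all 27025 genes with a window, and TGACGTCA occurred in Dusp1 and Maff and in 2.03%. Junb, Klf6, Nr4a2, Nr4a3, Gadd45b, Dnajb1 and Dusp2 also passed a test and had a window, but none of their windows held either motif. TGACTCA occurred in Csrnp1 alone of the 29 genes and in 5.95% of all genes. A gene was counted where any of its windows held the motif, and the 29 genes had 40 windows, Egr2 alone 5, against 32851 windows for the 27025 genes. A match describes letters and is no evidence of a bound site. Printed are the 250 bases before the start, 5′ to 3′ on the strand of the gene, with the CArG box or, in Dusp1, TGACGTCA in capitals. The coordinates are chr19:53528895-53529144, plus strand for Dusp5, chr10:67537619-67537868, plus strand for Egr2 (1 of the 5 windows of that gene), chr7:28379229-28379478, minus strand for Zfp36 and chr17:26508473-26508722, minus strand for Dusp1.
Dusp5: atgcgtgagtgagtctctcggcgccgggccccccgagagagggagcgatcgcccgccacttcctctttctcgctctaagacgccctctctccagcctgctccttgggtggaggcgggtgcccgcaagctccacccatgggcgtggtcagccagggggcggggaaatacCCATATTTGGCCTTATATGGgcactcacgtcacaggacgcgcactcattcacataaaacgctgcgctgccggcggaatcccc
Egr2: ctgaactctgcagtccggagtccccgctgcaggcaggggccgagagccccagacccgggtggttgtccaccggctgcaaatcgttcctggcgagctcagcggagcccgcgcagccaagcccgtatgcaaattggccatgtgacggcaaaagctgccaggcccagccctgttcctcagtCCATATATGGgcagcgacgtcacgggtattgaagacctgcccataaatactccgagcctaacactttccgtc
Zfp36: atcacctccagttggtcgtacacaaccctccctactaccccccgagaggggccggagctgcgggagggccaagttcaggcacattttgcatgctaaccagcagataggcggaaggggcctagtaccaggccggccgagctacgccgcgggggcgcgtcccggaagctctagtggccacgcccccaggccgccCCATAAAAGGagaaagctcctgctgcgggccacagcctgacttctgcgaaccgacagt
Dusp1: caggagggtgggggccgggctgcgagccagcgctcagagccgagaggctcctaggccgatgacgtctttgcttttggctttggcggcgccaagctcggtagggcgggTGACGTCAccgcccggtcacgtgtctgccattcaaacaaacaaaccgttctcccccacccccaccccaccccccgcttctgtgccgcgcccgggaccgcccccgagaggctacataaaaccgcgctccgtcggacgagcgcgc
Dusp5 holds 2 CArG boxes end to end, which start 82 and 72 bases before the gene start, and those of Egr2 and Zfp36 start 72 and 58 bases before it. The motif in Dusp1 starts 143 bases before the start. None of the motifs overlaps another in these 4 windows.

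No heat shock gene passed between SMA and WT libraries, 0 of 4 after glycerol (limma) and 0 of 4 after BaCl2 (edgeR). At an unadjusted p under 0.05 there were 0 of the 4 after glycerol, beside 23.3% of all genes, and 1 of the 4 after BaCl2, beside 19.3%. DESeq2, which called more of all genes than edgeR, called 1 of the 4 after BaCl2, Dnajb1, as lower. Their median log2 fold change was 0.017 after glycerol and -0.17 after BaCl2. Hspa1a and Hspa1b encode the inducible HSP70 chaperone. After glycerol Hspa1a had 67258, 60461, 28459 and 60052 normalized counts in the SMA libraries, against 58607, 37969, 58314 and 46852 normalized counts in the WT libraries (log2 fold change 0.048, SE 0.26, limma adjusted p = 0.938). Hspa1b had 69177, 62189, 30648 and 58295 normalized counts in the SMA libraries, against 61689.8, 42956, 60393 and 50185 normalized counts in the WT libraries (log2 fold change -0.016, SE 0.24, limma adjusted p = 0.98). Both genes were lowest in SMA library 3 and next lowest in WT library 2, so the spread ran across the genotypes. Hsph1, an exchange factor of HSP70, had 31955, 25498, 20297 and 24441 normalized counts in the SMA libraries, against 28360, 20407, 31054 and 23398 normalized counts in the WT libraries (log2 fold change -0.014, SE 0.16, limma adjusted p = 0.972). Dnajb1, an HSP40 partner of HSP70, had 30494, 29060.2, 31266 and 33749.9 normalized counts in the SMA libraries, against 29970.3, 23556, 29749 and 29521 normalized counts in the WT libraries (log2 fold change 0.15, SE 0.08, limma adjusted p = 0.321). Hsph1 was again lowest in SMA library 3, while Dnajb1 was lowest in WT library 2, and all groups overlapped.

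After BaCl2 Dnajb1 had 208, 234 and 223 CPM in the SMA libraries, against 245, 301 and 256 CPM in the WT libraries (log2 fold change -0.27, SE 0.08, edgeR adjusted p = 0.106). Every SMA library was below every WT library. Hspa1a had 29.9, 28.2 and 19.5 CPM in the SMA libraries, against 22.7, 31.5 and 27.96 CPM in the WT libraries (log2 fold change -0.083, SE 0.16, edgeR adjusted p = 0.842). Hspa1b had 77.01, 64.7 and 42.5 CPM in the SMA libraries, against 63.03, 84.5 and 73.7 CPM in the WT libraries (log2 fold change -0.26, SE 0.18, edgeR adjusted p = 0.484). Hsph1 had 178, 157 and 143 CPM in the SMA libraries, against 119.99, 158 and 131 CPM in the WT libraries (log2 fold change 0.22, SE 0.11, edgeR adjusted p = 0.297). Both HSP70 genes were lowest in SMA library 3 and highest in WT library 2, and Hsph1 was highest in SMA library 1, so these 3 genes overlapped.

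Counting may split reads between Hspa1a and Hspa1b, which are near-identical copies, and their promoters are printed to show how alike they are. The windows lie at chr17:34972157-34972406, minus strand, for Hspa1a and at chr17:34959239-34959488, minus strand, for Hspa1b (RefSeq, GRCm38.p6), and the capitals mark the 3 of 250 bases at which they differ.
Hspa1a: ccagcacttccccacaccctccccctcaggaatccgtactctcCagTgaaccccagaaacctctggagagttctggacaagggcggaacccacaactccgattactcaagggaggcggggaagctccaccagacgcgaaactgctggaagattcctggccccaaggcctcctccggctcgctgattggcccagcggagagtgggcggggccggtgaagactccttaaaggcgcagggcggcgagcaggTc
Hspa1b: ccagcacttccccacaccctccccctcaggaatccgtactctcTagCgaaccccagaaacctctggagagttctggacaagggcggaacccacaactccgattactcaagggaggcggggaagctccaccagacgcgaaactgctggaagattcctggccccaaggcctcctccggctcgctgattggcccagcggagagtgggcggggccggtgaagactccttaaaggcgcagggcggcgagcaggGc
Both windows hold 1 pair of heat shock units (GAANNTTC), which starts 104 bases before the gene start, and such a pair was found in 6 of the 29 genes (Fosl2, Jun, Egr2, Hspa1a, Hspa1b and Hsph1) and in 17% of all genes with a window. The sum of both genes is not touched by such splitting, but would be lowered if reads matching both copies were left uncounted, which was not tested. The sum was 136434, 122650, 59108 and 118347 normalized counts in SMA and 120296, 80925, 118707 and 97037 in WT libraries after glycerol. After BaCl2 the sum was 107, 92.9 and 62.0 CPM in SMA and 85.7, 116 and 102 CPM in WT libraries. The sums overlapped after both injuries.

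The genotype effect differed between the injuries in 11 of the 35 genes by a z test of the 2 log2 fold changes, beside 10.5% of 13960 genes tested. It was higher after glycerol than after BaCl2 in 9, beside 5.53% of all genes, and lower in 2, beside 5%. Dusp1 differed by 0.53 (SE 0.10, adjusted p = 3.49e-05). Zfp36 differed by 0.60 (SE 0.13, adjusted p = 0.000208). Egr1 differed by 0.65 (SE 0.13, adjusted p = 0.00019) and Egr2 by 0.48 (SE 0.12, adjusted p = 0.00162). Further positive differences were those of Dnajb1 at 0.42 (SE 0.12, adjusted p = 0.0095), Myc at 0.41 (SE 0.12, adjusted p = 0.0174) and Gadd45b at 0.36 (SE 0.11, adjusted p = 0.0117). Klf6 stood at 0.33 (SE 0.10, adjusted p = 0.0111) and Junb at 0.28 (SE 0.10, adjusted p = 0.0369). The negative differences were Nr4a3 at -0.49 (SE 0.13, adjusted p = 0.00458) and Nr4a2 at -0.44 (SE 0.10, adjusted p = 0.00118).

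The z test takes the standard errors as known, and with a t distribution in its place, added after the data were seen, 5 of the 35 genes passed, beside 3.8% of all genes. These were Dusp1 (adjusted p = 0.0121), Egr1 (0.0162), Zfp36 (0.0167) and Egr2 (0.0287), higher after glycerol, and Nr4a2 (0.0266), lower. All 12 AP-1 and EGR genes had a difference above 0, with a median of 0.22, beside 52.2% of all genes and a median of 0.012. SMA library 1 after BaCl2 bears on these values, as it was the lowest library for 9 of the 12 genes. Without it 9 of the 35 genes passed the z test, among them Egr1, Egr2, Dusp1, Zfp36, Nr4a2 and Nr4a3, and the difference of Egr1 was 0.53. The share of all genes that passed without it is not given here. With each of the 14 libraries left out in turn, Junb passed the z test in 5 fits, Klf6 and Myc in 12 and the other 8 genes in all 14. Of the 4 heat shock genes, Dnajb1 alone differed between the injuries by the z test, and none did with the t distribution (Dnajb1 adjusted p = 0.0536).

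Markers of other cell types moved in the same comparisons. In the difference between the injuries 5 of 10 FAP markers were higher (median 0.41) and 5 of 6 endothelial markers lower (median -1.16), as were 2 of 6 pericyte markers (median -0.56). Of 12 macrophage markers 0 passed that z test and 2 had an unadjusted p under 0.05 (median -0.034). After glycerol 2 of 6 endothelial markers fell in SMA libraries, with a median log2 fold change of -0.73, and their sum was 6396 to 8274 normalized counts in SMA, against 9657 to 13879 normalized counts in WT libraries. Of 6 pericyte markers 1 fell (median -0.62), with a sum of 35655 to 43586 normalized counts in SMA, against 47429 to 52164 normalized counts in WT libraries. Pdgfrb made up most of that sum and overlapped, at 25998 to 34052.5 normalized counts in SMA, against 31913 to 36816 in WT libraries. Of the other pericyte markers, Rgs5 and Acta2 were lower in SMA without overlap, and Cspg4, Myh11 and Kcnj8 overlapped. After BaCl2 all 6 endothelial markers had a log2 fold change above 0 (median 0.48), with WT library 2 lowest for 5, and none passed in edgeR. Of 3 satellite cell markers tested 2 fell after BaCl2, and of 4 neutrophil markers tested 1 rose after each injury. After BaCl2 3 of 6 Schwann cell markers rose (median 1.07), with a sum of 26.9 to 32.6 CPM in SMA, against 13.3 to 18.9 CPM in WT libraries. The FAP markers summed to 40913 to 53940 CPM in SMA, against 61005 to 67510 CPM in WT libraries after BaCl2. None of these sums overlapped between the genotypes, and no endothelial, pericyte, Schwann cell or FAP marker was at 0 in any library. Col1a1 and Col3a1 made up most of the FAP sum. Col1a1 had 17388 to 25654 CPM in SMA, against 27273 to 30241 CPM in WT libraries. Col3a1 had 19158 to 23699 CPM in SMA, against 28461 to 31362 CPM in WT libraries. Of the other FAP markers after BaCl2, Pdgfra, Cd34, Pi16 and Gsn overlapped between the genotypes, and Ly6a, Dcn, Lum and Dpt did not. The part of these cell types in the results on the 35 genes was not tested.

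Some values stood apart in single libraries, and others differed between the genotypes. After BaCl2 SMA library 1, which had the fewest counts (97.7 M), was the lowest of the 6 libraries for 20 of the 35 genes, and the 35 genes made up 1.64% of its counts, against 1.92% and 1.79% in the other SMA libraries and 1.80% to 1.82% in WT libraries. Its macrophage marker sum was the highest of the 6, at 3037 CPM, against 2450.1 and 1984 CPM in the other SMA libraries and 1094 to 1529 CPM in WT libraries. Of 10 FAP markers 4 were lower in SMA libraries after BaCl2, and after glycerol 0 passed in limma and 2 had an unadjusted p under 0.05. After glycerol the 35 genes made up 2.17% to 2.22% of the summed values in SMA and 1.91% to 2.06% in WT libraries, without overlap. The heat shock group averaged -0.44 on the log2 scale relative to the WT mean in SMA library 3 and -0.32 in WT library 2, and lay between -0.054 and 0.32 in the other 6 libraries. The part of depth in the results after BaCl2, and that of macrophage RNA after both injuries, was not tested.

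**Figure D4:**
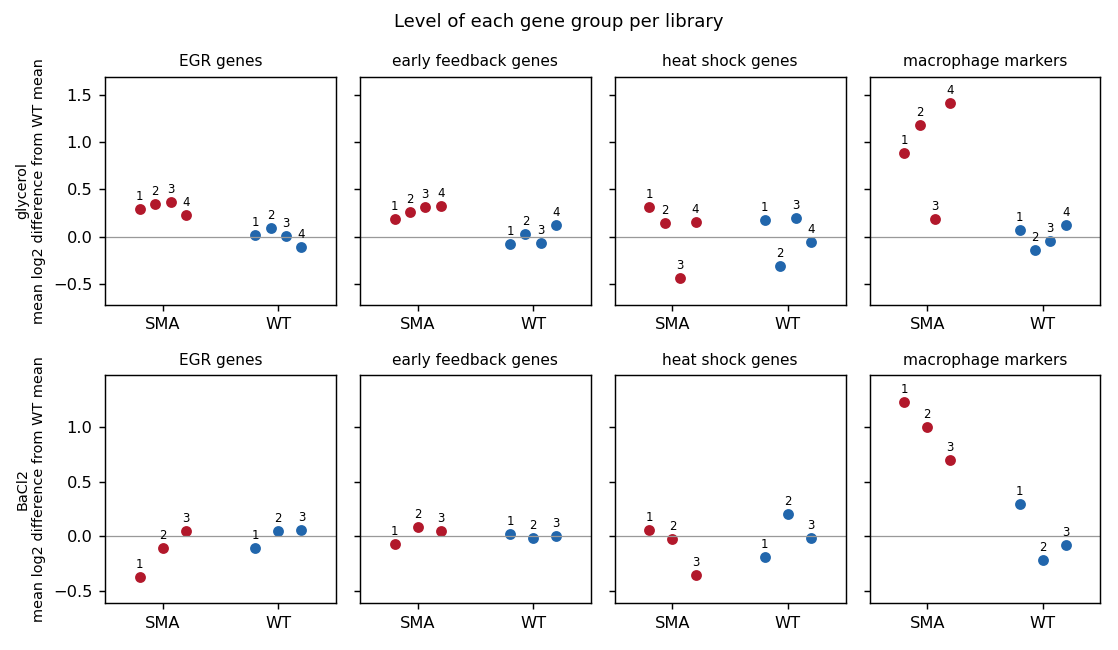
Mean log2 level of 3 groups of the 35 genes and of 12 macrophage markers per library, relative to the mean of the WT libraries (upper row glycerol, lower row BaCl2; SMA left, WT right; points numbered by library). After glycerol the EGR and early feedback levels of SMA library 3 lie with those of the other SMA libraries (EGR 0.37, against 0.23 to 0.34), while its macrophage marker level (0.19, against 0.89 to 1.41) and its heat shock level (-0.44) lie apart from them.

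Other genes of the same pathways were read from lists that hold none of the 35. After glycerol 4 of 49 other immediate early genes rose and 0 fell, beside 1.7% and 1.17% of all genes. Of the 49, 12 had an unadjusted p under 0.05 in limma, a share near the 23.3% of all genes. Ccn1, a secreted matricellular protein and target of serum response factor, had 87851, 90998, 86849.6 and 111633 normalized counts in the SMA libraries, against 68393, 65211, 64217 and 68292 normalized counts in the WT libraries (log2 fold change 0.50, SE 0.08, limma adjusted p = 0.0307). Irf1, an interferon-responsive transcription factor, had 21993, 20979, 25616 and 21159.5 normalized counts in the SMA libraries, against 15643, 16299.6, 12628 and 16623 normalized counts in the WT libraries (log2 fold change 0.56, SE 0.10, limma adjusted p = 0.0317). For both, every SMA library was above every WT library, which also held for Ppp1r15a, the stress-induced subunit of a phosphatase of eIF2 (log2 fold change 0.33, SE 0.06, limma adjusted p = 0.0321), and for Ccnl1, a cyclin of RNA splicing (log2 fold change 0.24, SE 0.05, limma adjusted p = 0.0494). After BaCl2 1 of 49 rose and 2 fell, beside 2.73% and 1.56% of all genes, and 14 had an unadjusted p under 0.05 in edgeR, beside 19.3%. Tnfaip3, a feedback inhibitor of NF-kappaB, had 237, 236 and 179 CPM in the SMA libraries, against 167, 148 and 159 CPM in the WT libraries (log2 fold change 0.46, SE 0.10, edgeR adjusted p = 0.0349). Per1, a clock gene, had 126, 127 and 115 CPM in the SMA libraries, against 162, 155 and 172 CPM in the WT libraries (log2 fold change -0.41, SE 0.07, edgeR adjusted p = 0.0109), and Spry4, an inhibitor of receptor tyrosine kinase signalling, fell too (log2 fold change -0.40, SE 0.09, edgeR adjusted p = 0.0338). The median log2 fold change of the 49 was 0.051 after glycerol and -0.073 after BaCl2.

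Of 24 other heat shock genes 0 passed after glycerol in limma, with a median log2 fold change of -0.027, and 4 had an unadjusted p under 0.05, a smaller share than the 23.3% of all genes. After BaCl2 1 rose and 1 fell, beside 2.73% and 1.56% of all genes, with a median of 0.097. Hspa4l, an HSP110 relative, had 32.7, 30.3 and 26.8 CPM in the SMA libraries, against 23.5, 24.8 and 22.4 CPM in the WT libraries (log2 fold change 0.35, SE 0.08, edgeR adjusted p = 0.0488). Dnajb4, an HSP40 protein, had 139, 143 and 143 CPM in the SMA libraries, against 173, 187 and 176 CPM in the WT libraries (log2 fold change -0.34, SE 0.06, edgeR adjusted p = 0.0126). Neither gene's groups overlapped.

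The authors' deposited table called more of the 35 genes. For glycerol it called 10, 8 of them higher, beside 12.5% of its genes, and for BaCl2 it called 5, 2 of them higher, beside 13.8%. The authors' deposited table for BaCl2 gave log2 fold changes of 0.26 (adjusted p = 0.0353) for Atf3, -0.22 (adjusted p = 0.0282) for Fosl2, -0.30 (adjusted p = 0.015) for Zfp36 and -0.25 (adjusted p = 0.0348) for Dnajb1, which were called there and not in the main edgeR fit here. DESeq2 as run here also called Fosl2, Zfp36 and Dnajb1 as lower. For glycerol the authors' deposited table gave 0.64 (adjusted p = 0.00231) for Dusp2, 0.50 (adjusted p = 0.00243) for Atf3, 0.33 (adjusted p = 0.00337) for Egr2, 0.29 (adjusted p = 0.0406) for Zfp36, -0.34 (adjusted p = 0.00344) for Nr4a2 and -0.39 (adjusted p = 0.0252) for Nr4a3, likewise called there and not in the main limma fit here. The signs there were those of the fits made here for these 10 values.

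The tables were normalized separately, so levels across the injuries can be set side by side but were not tested. Per M of all values of a library, Hspa1a stood at 517 to 818 in the WT libraries after glycerol, against 22.7 to 30.1 in the WT libraries after BaCl2. Hspa1b stood at 584 to 861 after glycerol, against 63.0 to 80.5 after BaCl2. Their sum was 1101 to 1679 in the WT libraries after glycerol, against 85.7 to 111 after BaCl2. Egr1 stood at 264 to 375 after glycerol, against 989 to 1052 after BaCl2. Among the 35 genes and 2 further chaperone genes, the ratio of the WT mean after glycerol to that after BaCl2 was highest for Hspa1a, Hspa1b, Fosl1, Hsph1 and the non-member Hsp90aa1, from 25.9 down to 1.87, and lowest for Egr1, 0.33. Injury, batch and the authors' processing cannot be told apart in these ratios.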

How the data were processed

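FAP RNA was sequenced in 14 libraries from poly(A)-selected RNA with a directional kit, per the labels' protocols. The BaCl2 table holds the authors' deposited read counts per gene. The glycerol table holds a signal, which the file headers call normalized counts, made by the authors, and no counts could be recovered from it. The log2 fold changes and adjusted p-values in both tables were made by the authors and were used only where named. The submitters' processing notes name fastp, featureCounts, Salmon and DESeq2 but no versions, and the genome build is not given in the sources used here. Another 6 columns of per-sample values were not used.

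With R 4.3.3, BaCl2 counts were TMM-scaled (factors 0.953 to 1.05), filtered with filterByExpr and tested with edgeR 4.0.16 (quasi-likelihood F test). Glycerol values were fitted as log2(value + 1) with limma 3.58.1 (trend), so fold changes of low genes are understated. Genes passed at a Benjamini-Hochberg adjusted p under 0.05 over all genes tested. The injuries were compared by a z test, the log2 fold change after glycerol minus that after BaCl2, divided by the root of their summed squared SEs. Alternatives were DESeq2 1.42.0, other scalings, filters and pseudocounts, a replicate block and each library left out. The fits were tested on simulated data.

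The 35 genes and all lists were chosen with earlier results of these data known. Values per library are given for genes that passed any test, for the 3 genes of each role group with the smallest p in each injury, and for Fos, Jun, Egr1, Atf3, Dusp1, Nr4a1, Hspa1a and Hspa1b, and of each further list up to 4 passing genes are named. Values are not per length, so levels were not compared between genes.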

Additional observations from a re-analysis of the deposited data

Results flagged for a closer look

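In 4 of 70 groups of glycerol libraries, 1 library lay far from the other 3 by Dixon's test, which chance gives in about 5% of groups. Fos was low in WT library 4 (97751 normalized counts). Nr4a3 was high in the same library (30533 normalized counts). Dusp1 was high in SMA library 4 (42475 normalized counts). Dnajb1 was low in WT library 2 (23556 normalized counts).

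The genotype effect differed between the injuries (glycerol minus BaCl2, log2 scale, z test) for Egr1 (0.65), Zfp36 (0.60), Dusp1 (0.53), Egr2 (0.48), Dnajb1 (0.42), Myc (0.41), Gadd45b (0.36), Klf6 (0.33) and Junb (0.28). It differed the other way for Nr4a3 (-0.49) and Nr4a2 (-0.44).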

How the results depend on the processing

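After BaCl2, DESeq2 called 4 of the 35 genes (1752 of all genes) and a fit without a filter on low counts called 8 (1867), against 1 (863). Leaving out SMA libraries 1 and 2 together gave 2 (108 of all genes), with SMA library 3 assumed to vary like the WT libraries, and turned Egr1 to 0.030, Egr3 to 0.14 and Nr4a1 to 0.017. With each library left out in turn the counts were 0 to 3 (41 to 1577 of all genes). After glycerol they were 0 to 9 (0 to 1645), against 4 (411), and a fit of the genes above the median mean called 3 (201). TMM factors and the pseudocounts 0.1 and 10 kept the same 4 genes. For the difference between the injuries the counts with a library left out were 8 to 14, for which no counts of all genes are given here. The t distribution gave 5 (530 of all genes), against 11 (1470).

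Leaving out 1 library turned some log2 fold changes round. After BaCl2 the ranges were -0.13 to 0.068 for Egr1, -0.16 to 0.060 for Fos, -0.12 to 0.0023 for Nr4a1 and -0.20 to 0.093 for Hspa1a. After glycerol they were -0.068 to 0.086 for Egr3, -0.082 to 0.33 for Hspa1a, -0.15 to 0.24 for Hspa1b and -0.13 to 0.090 for Hsph1. The causes were not tested.

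Same-numbered libraries did not deviate together over all genes (r from -0.13 to 0.087). With 3 or 4 libraries per group this cannot exclude that the numbers pair them. With the replicate block 4 of the 35 genes passed after BaCl2 (Dusp2, Myc, Zfp36 and Dnajb1) and 13 for the difference. The shares of all genes passing in those fits are not given here, so these counts have no background to be set against. After glycerol 5 passed (257 of all genes), namely Egr2, Dusp1, Dusp5, Gadd45b and Nr4a3. Egr1 was not among them, at an unchanged log2 fold change of 0.59 and an adjusted p of 0.0509 in limma. The lowest count of any of the 35 genes after BaCl2 was 415, and the depth behind the glycerol values is unknown.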
